A study of Sus scrofa with 20 samples.

Results

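The receptors through which hormones start or restrain fat breakdown were compared between backfat and liver of Nanchukmacdon boars. The set held 9 genes, chosen by symbol as the receptors of catecholamines, prostaglandin E2, adenosine, thyrotropin and PACAP known to act on the fat cell: ADRB1, ADRB3, TSHR and ADCYAP1R1 (lipolytic), ADRA2A, PTGER3 and ADORA1 (antilipolytic), and ADRA1A and ADRA1B (alpha-1). All 9 were matched to a pig Ensembl gene among the 31907 genes of the count table. Backfat, the subcutaneous fat of the back, and liver of the same 5 boars had been sampled, with no treatment given in the labels, which gave 5 RNA-seq libraries for each tissue. The labels give all animals as WT, of normal disease state and 22 months of age. The methods of the study give another average age. Each library came from a piece of bulk tissue, so that lower expression in a tissue cannot be told apart from fewer cells of the expressing type. Libraries held 45157114 to 61772737 counted reads in backfat and 43820042 to 53768601 in liver.

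Lipolytic receptors such as the beta adrenoceptors couple to the stimulatory G protein, which switches on adenylyl cyclase. Cyclic AMP then activates protein kinase A, which phosphorylates perilipin and hormone-sensitive lipase, and triglyceride is broken down. Antilipolytic receptors couple to the inhibitory G protein and lower cyclic AMP in the same cell. Alpha-1 adrenoceptors act through phospholipase C and calcium, and in liver they are known for the stimulation of glycogen breakdown by catecholamines.

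Levels are given as CPM, the counts per 1000000 reads of the library after TMM scaling, which corrects for differences in RNA composition. The labelled tissues were checked against marker genes. Summed levels of the 5 adipocyte markers were 9099 to 11957 CPM in backfat and 8.05 to 11.1 CPM in liver. The 5 hepatocyte markers summed to 24674 to 91491 CPM in liver and 170.3 to 565.1 CPM in backfat, with the highest backfat value in boar 69. Liver of boar 67 stood apart, with 44.5% of reads on protein-coding genes of the mitochondrial genome against 6.38% to 20.2% in the other liver libraries. It also held 147.1 CPM of the skeletal muscle markers, all 3 of the 3 matched genes being detected, against 0.474 to 1.197 CPM in the other livers. The number of receptors called was the same when liver of boar 67 and backfat of boar 69 were left out.

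A gene was called between the tissues where its log2 fold change was 2 or more in size and its adjusted p, from the quasi-likelihood test of edgeR over 16275 genes (Benjamini-Hochberg), was 0.05 or less. Positive values stand for higher expression in backfat. Among the 9 receptors, 5 were called higher in backfat (ADRB1, TSHR, ADCYAP1R1, PTGER3 and ADORA1), where 11.1% of all tested genes were called in that direction. ADRA1A alone was called higher in liver, a direction called for 11.2% of tested genes. The median log2 fold change of the receptors was 3.61, beside 0.00014 over all tested genes. The libraries of the tissues did not overlap for the 6 called receptors, a state found in 42.6% of tested genes. All 9 receptors passed the filter on low counts.

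**Figure D1:**
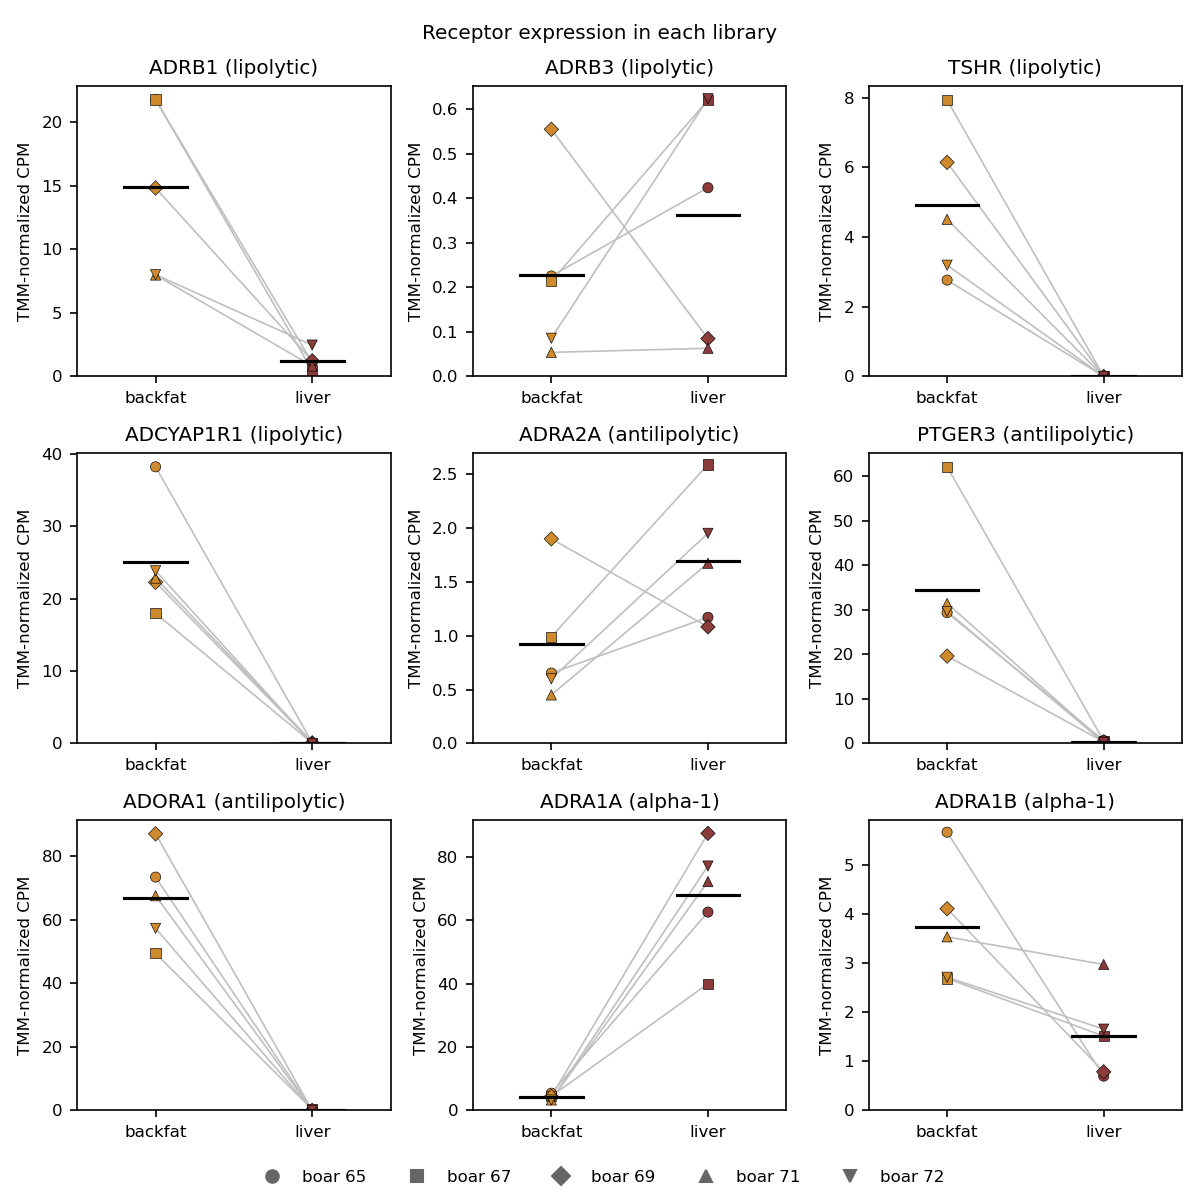
CPM of the 9 receptors on linear axes from 0 in each of the 5 backfat and 5 liver libraries, with 1 point per library and a bar at the mean. TSHR had 0 reads in every liver library, and ADRB3 stayed below 1 CPM in both tissues.

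Among the lipolytic receptors, ADRB1, the beta-1 adrenoceptor (ENSSSCG00000010647), was read in all 10 libraries. It is a gene of 1 exon on chromosome 14 (Sscrofa11.1, 124400330 to 124401739, plus strand, RefSeq). Its level in backfat was 21.8, 21.8, 14.8, 7.98 and 8.01 CPM in boars 65, 67, 69, 71 and 72. In liver of the same boars it was 1.10, 0.459, 1.23, 0.821 and 2.47 CPM. Every backfat library lay above every liver library, and boars 65 and 67 were high in backfat. The means were 14.9 ± 6.90 CPM in backfat and 1.22 ± 0.760 CPM in liver (SD, n = 5 each), a log2 fold change of 3.61 (SE 0.47, edgeR adjusted p = 3.28e-05). The backfat libraries of boars 65 and 67 also had the lowest share of mitochondrial protein-coding reads, 7.38% and 7.20% against 12.3% to 15.7% in the other backfat libraries. The adipocyte markers summed to 10292, 11957, 10517, 9140 and 9099 CPM in backfat of boars 65, 67, 69, 71 and 72. The skeletal muscle markers, all 3 matched genes being detected in each library, summed to 392.4, 103.8, 146.8, 23.8 and 7.63 CPM there. Both sums were thus lower in boars 71 and 72, where ADRB1 was low, and the part of muscle, fat cells or mitochondrial reads in the levels of ADRB1 was not tested.

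ADRB3, the beta-3 adrenoceptor (ENSSSCG00000015821; chromosome 15, 48468803 to 48478370, plus strand), was the scarcest receptor in backfat. Its backfat level was 0.226, 0.214, 0.555, 0.0541 and 0.0858 CPM in boars 65, 67, 69, 71 and 72. In liver it was 0.424, 0.621, 0.0849, 0.0632 and 0.624 CPM. The tissues overlapped, and backfat was above liver in boar 69 only. The log2 fold change was -0.67 (SE 0.72, edgeR adjusted p = 0.452), and only 75 reads in all backfat libraries and 69 in all liver libraries were counted. With library size alone as the scale the log2 fold change was 0.046, so no direction is given.

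TSHR, the thyrotropin receptor (ENSSSCG00000031771; chromosome 7, 103768260 to 103925777, plus strand), was read in backfat only. The level was 2.76, 7.93, 6.14, 4.51 and 3.19 CPM in boars 65, 67, 69, 71 and 72, from 1566 reads in all. No read was counted in any of the 5 liver libraries, which allows up to 0.0156 CPM over the tissue (3 reads, counting error only). Backfat was thus at least 315-fold higher (4.91 ± 2.14 CPM, SD, n = 5, edgeR adjusted p = 4.69e-06).

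ADCYAP1R1, a receptor of the neuropeptide PACAP (ENSSSCG00000016672, chromosome 18, 41915180 to 41972327, minus strand), was the other lipolytic receptor of backfat. Its level there was 38.2, 18.0, 22.3, 22.8 and 23.8 CPM in boars 65, 67, 69, 71 and 72. In liver it was 0.0997, 0.0540, 0.0849, 0.190 and 0 CPM, from 16 reads in all. The tissues were far apart in every boar. The log2 fold change was 8.19 (SE 0.47, edgeR adjusted p = 3.46e-08), with means of 25.0 ± 7.70 and 0.0857 ± 0.0695 CPM (SD, n = 5 each).

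Of the antilipolytic receptors, ADORA1, the adenosine A1 receptor (ENSSSCG00000021059; chromosome 9, 113835279 to 113875899, plus strand), showed the largest fitted difference among the receptors read in both tissues. Its backfat level was 73.4, 49.4, 87.1, 67.6 and 57.3 CPM in boars 65, 67, 69, 71 and 72. In liver it was 0.0997, 0.351, 0.0212, 0.0316 and 0.0542 CPM, from 21 reads in all. Backfat libraries varied little around their mean of 66.97 ± 14.5 CPM (SD, n = 5), with a coefficient of variation of 21.7% beside a median of 23.2% over all tested genes. The log2 fold change was 9.22 (SE 0.51, edgeR adjusted p = 3.0e-08), or 10.25 without the liver library of boar 67. Exons of ADORA1 overlap those of MYBPH, a muscle myosin-binding protein gene on the opposite strand, in the RefSeq annotation. The counting did not use strand, and it left out reads on more than 1 gene of the Ensembl annotation. MYBPH was at 6.81 to 12.6 CPM in backfat. Its liver level was highest in boar 67, 5.35 CPM against 0.297 to 1.52 CPM in the other boars. That liver library also held the most ADORA1 reads and the skeletal muscle markers given above, and their part in its ADORA1 level was not tested.

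PTGER3, the prostaglandin E2 receptor EP3 (ENSSSCG00000003788; chromosome 6, 141958955 to 142160437, plus strand), was also a backfat gene. Its level in backfat was 29.4, 62.1, 19.6, 31.4 and 29.6 CPM in boars 65, 67, 69, 71 and 72. In liver it was 0.648, 0.594, 0.361, 0.316 and 0.217 CPM. Boar 67 was high in backfat, and the lowest backfat library was still above all liver libraries. The log2 fold change was 6.32 (SE 0.41, edgeR adjusted p = 9.19e-08), or 6.0 without the backfat library of boar 67. RefSeq places an uncharacterized gene, LOC106507649, on the opposite strand over part of PTGER3. Strand was not used in the counting, and reads on more than 1 gene of the Ensembl annotation were left out. Whether reads of LOC106507649 entered the PTGER3 count was not tested.

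ADRA2A, the alpha-2A adrenoceptor through which catecholamines restrain lipolysis (ENSSSCG00000010629; chromosome 14, 121469572 to 121470924, plus strand, 1 exon), was low in both tissues. Its backfat level was 0.654, 0.992, 1.90, 0.451 and 0.60 CPM in boars 65, 67, 69, 71 and 72. The liver level was 1.17, 2.59, 1.08, 1.67 and 1.95 CPM. Ranges overlapped, and backfat exceeded liver in boar 69 only, the boar whose backfat library had the highest hepatocyte and nerve marker sums (565.1 and 58.9 CPM, against 170.3 to 216.0 and 12.1 to 23.95 CPM in the others). The part of these cells in its ADRA2A level was not tested. The log2 fold change of -0.88 (SE 0.43) missed the threshold (edgeR adjusted p = 0.103). Without that backfat library it was -1.32 (edgeR adjusted p = 0.0142), still under the fold threshold, and without it and the liver library of boar 67 it was -1.12 (edgeR adjusted p = 0.0202). Adjusted p-values under the other alternatives were between 0.0578 and 1.

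The alpha-1 adrenoceptors had opposite signs. ADRA1A (ENSSSCG00000009661; chromosome 14, 10623391 to 10733378, minus strand) was at 5.43, 4.47, 4.37, 3.30 and 3.28 CPM in backfat of boars 65, 67, 69, 71 and 72. In liver it reached 62.5, 39.9, 87.3, 72.2 and 77.0 CPM. Liver was above backfat in all 5 boars, and boar 67, whose hepatocyte marker sum was the lowest of the livers (24674 CPM against 71553 to 91491 CPM), was lowest for ADRA1A as well. Whether the lower hepatocyte share set this level was not tested. The mean was 16.2-fold higher in liver (67.8 ± 18.0 against 4.17 ± 0.904 CPM, SD, n = 5 each, log2 fold change -4.02, SE 0.25, edgeR adjusted p = 6.02e-08).

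ADRA1B (ENSSSCG00000017041; chromosome 16, 63550123 to 64010838, minus strand) was at 5.66, 2.69, 4.10, 3.53 and 2.71 CPM in backfat of boars 65, 67, 69, 71 and 72. In liver it was 0.698, 1.51, 0.786, 2.97 and 1.65 CPM. Backfat was above liver in 5 of 5 boars although the ranges overlapped. The log2 fold change of 1.30 (SE 0.41, edgeR adjusted p = 0.0170) passed the test but not the fold threshold, and 55% of all tested genes passed the test at any fold. With library size alone, which moved the median of all genes by 0.71, it was 2.12 and was called.

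The receptors also differed in their spread between boars. The coefficient of variation over the 5 backfat libraries was above the median of all tested genes (23.2%) for 7 of the 9 receptors, the exceptions being ADORA1 and ADRA1A at 21.7% each. It was 46.4% for ADRB1, 46.9% for PTGER3 and 43.7% for TSHR, and 87.5% for ADRB3, which had few reads.

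**Figure D2:**
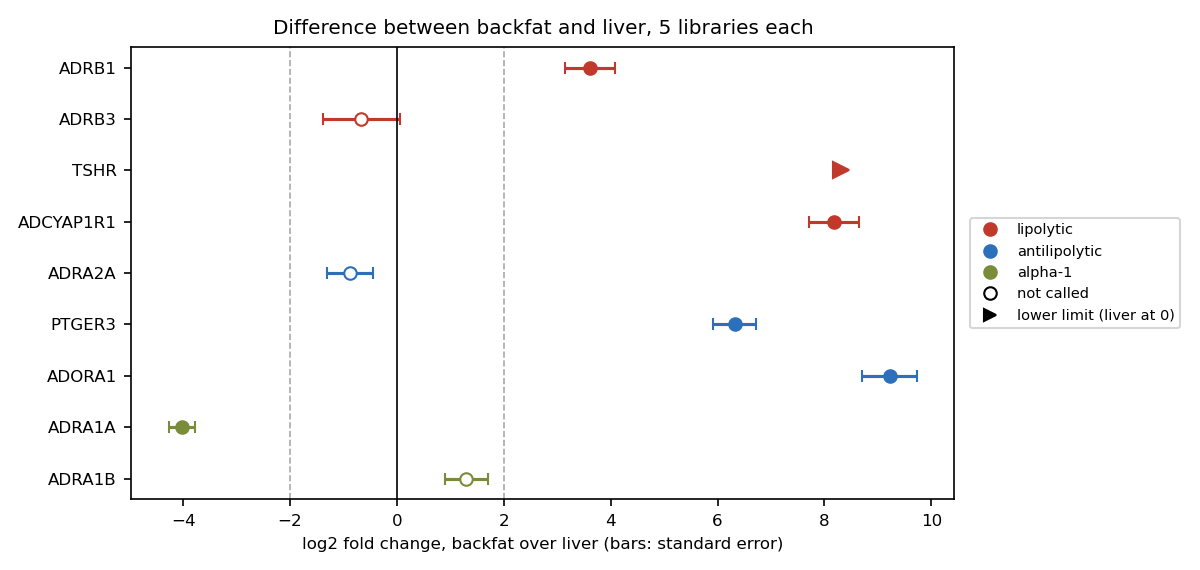
Log2 fold change of each receptor, backfat over liver, with its standard error as a bar and dashed lines at the fold threshold of 2. Filled points were called, and TSHR is drawn as a lower limit because liver had no read. ADORA1 lay farthest to the right and ADRA1A at the left, at -4.02.

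The bases before the RefSeq gene start are printed for the 5 called receptors that differed most between the tissues. Of the 6 called receptors, 5 were higher in the same tissue. ADRB1, the called receptor with the smallest fold change, is not printed. Windows of 250 bases were taken from Sscrofa11.1 and are printed 5′ to 3′ on the strand of the gene, with motif matches on either strand in capitals. They lie at chr9:113835029-113835278 (ADORA1), chr6:141958705-141958954 (PTGER3), chr7:103768010-103768259 (TSHR), chr18:41972328-41972577 (ADCYAP1R1) and chr14:10733379-10733628 (ADRA1A), the last being the receptor higher in liver.
ADORA1: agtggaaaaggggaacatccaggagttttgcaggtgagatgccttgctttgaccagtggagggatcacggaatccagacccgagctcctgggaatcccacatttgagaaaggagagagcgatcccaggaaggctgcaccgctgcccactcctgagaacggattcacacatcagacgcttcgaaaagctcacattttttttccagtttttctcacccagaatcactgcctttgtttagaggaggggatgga
PTGER3: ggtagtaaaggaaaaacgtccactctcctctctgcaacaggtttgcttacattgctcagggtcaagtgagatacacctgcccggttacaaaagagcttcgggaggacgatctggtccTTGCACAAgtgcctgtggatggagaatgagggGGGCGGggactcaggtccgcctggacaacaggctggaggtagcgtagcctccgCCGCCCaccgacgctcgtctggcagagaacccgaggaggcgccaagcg
TSHR: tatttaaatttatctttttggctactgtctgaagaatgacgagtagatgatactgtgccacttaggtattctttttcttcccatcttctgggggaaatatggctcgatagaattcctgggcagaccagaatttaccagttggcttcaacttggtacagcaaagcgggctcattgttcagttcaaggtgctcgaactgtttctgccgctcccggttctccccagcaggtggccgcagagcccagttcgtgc
ADCYAP1R1: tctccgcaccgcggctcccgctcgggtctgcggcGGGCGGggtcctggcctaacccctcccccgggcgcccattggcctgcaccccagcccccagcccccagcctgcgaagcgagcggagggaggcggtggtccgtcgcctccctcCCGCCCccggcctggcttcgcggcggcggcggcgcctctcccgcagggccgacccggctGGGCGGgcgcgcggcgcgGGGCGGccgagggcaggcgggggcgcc
ADRA1A: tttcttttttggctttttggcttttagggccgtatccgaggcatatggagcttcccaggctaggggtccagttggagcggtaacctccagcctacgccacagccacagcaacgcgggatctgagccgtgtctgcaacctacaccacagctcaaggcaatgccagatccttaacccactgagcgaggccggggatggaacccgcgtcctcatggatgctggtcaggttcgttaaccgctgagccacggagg
The TATA box was searched for as TATAAA, the GC box as GGGCGG, the E-box as CACGTG, the cyclic AMP response motif as TGACGT, the C/EBP motif as TTGCNNAA and the nuclear receptor motif as AGGTCA, and no match overlapped another in these windows. The PTGER3 window held 2 GC boxes and 1 C/EBP motif, that of ADCYAP1R1 held 4 GC boxes, and the other windows printed held no match. The shares of 19531 windows of the same length with at least 1 match were 45.9% for the GC box, 8.21% for the C/EBP motif, 9.77% for the TATA box, 6.39% for the E-box, 6.83% for the cyclic AMP response motif and 12.2% for the nuclear receptor motif. The ADORA1 and TSHR windows held 7 and 8 CG dinucleotides beside a median of 12, at percentiles 37.4 and 40.4 of the 19531 windows. PTGER3 held 15 and ADCYAP1R1 held 37 in a window that was 83.2% G and C. The ADRB1 window, not printed, held 35 at 79.6% G and C, with 2 GC boxes and 1 nuclear receptor motif. The RefSeq gene of ADRB1 starts at its coding sequence, so that window lies directly before the coding sequence. All of the ADRA1A window is soft-masked as repeat in the reference.

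Levels of different receptors were compared per kilobase of exon, as CPM per kilobase (RPKM). In backfat ADORA1 came first, at 25.5 ± 5.54 RPKM (SD, n = 5). ADRB1 followed at 9.60 ± 4.45, ADCYAP1R1 at 5.51 ± 1.70 and PTGER3 at 4.83 ± 2.27 RPKM. With the exon lengths of the count table, libraries of ADORA1 did not overlap those of ADRB1, while ADRB1, ADCYAP1R1 and PTGER3 overlapped as neighbours. Below a gap under PTGER3 came ADRA1B (1.48 RPKM), TSHR (0.966), ADRA1A (0.664) and ADRA2A (0.658), each overlapping the next. ADRB3 was last, at 0.0605 ± 0.0530 RPKM, apart from ADRA2A in every library.

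The order in liver was another. ADRA1A led at 10.8 ± 2.86 RPKM (SD, n = 5) and did not overlap ADRA2A, at 1.21 ± 0.441 RPKM. ADRB1 (0.784 RPKM) and ADRA1B (0.604 RPKM) came next. ADRB1 overlapped both of its neighbours, and ADRA1B lay above ADRB3 in every library. ADRB3, PTGER3, ADORA1 and ADCYAP1R1 were all below 0.1 RPKM on average and overlapped as neighbours, and TSHR had no read. With the longest RefSeq transcript as the length, the mean of ADORA1 in backfat was 12.6 RPKM and that of ADRB1 10.6 RPKM. The backfat libraries of ADORA1 and ADRB1 then overlapped. On that length 5 of 9 receptors kept their place in backfat, against 9 of 9 in liver. The exon lengths of ADRB1 (1551 bases) and ADRA2A (1398 bases) are close to those of their RefSeq transcripts (1410 and 1353 bases), which hold coding sequence only.

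**Figure D3:**
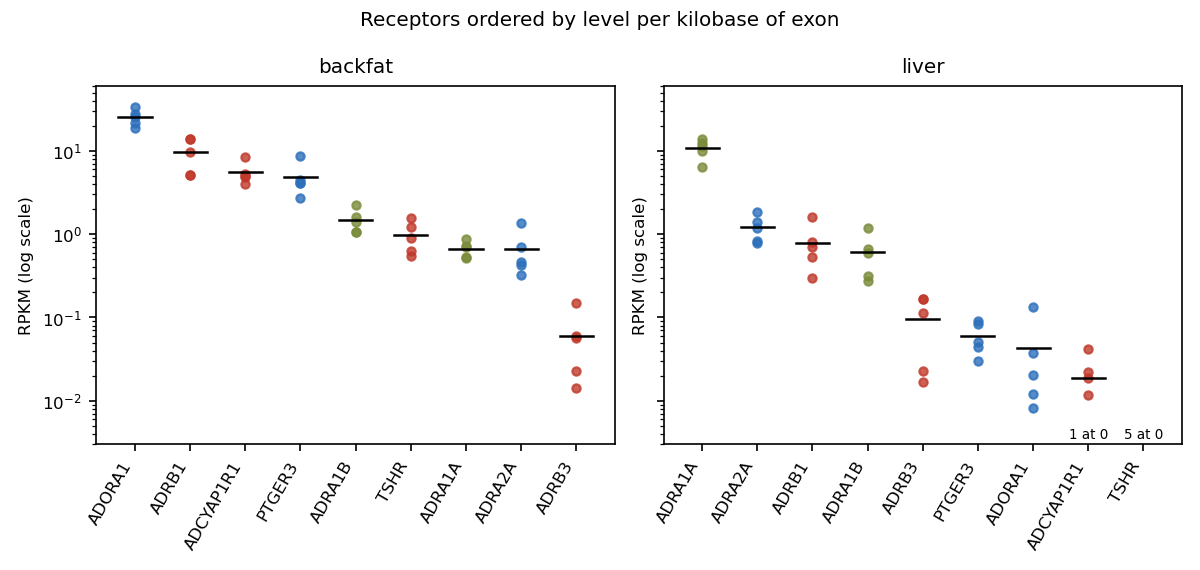
RPKM of each receptor on a log axis, ordered by the mean in backfat (left) and in liver (right), with 1 point per library and a bar at the mean. ADORA1 led in backfat at 25.5 RPKM and ADRA1A in liver at 10.8 RPKM, and libraries without a read are counted above the axis.

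Summed by signal, the lipolytic receptors reached 16.1 ± 5.28 RPKM in backfat and 0.899 ± 0.506 RPKM in liver (SD, n = 5 each). The antilipolytic receptors summed to 31.0 ± 4.20 RPKM in backfat and 1.31 ± 0.486 RPKM in liver. The alpha-1 receptors were the one class with the larger sum in liver, 11.4 ± 2.87 RPKM against 2.15 ± 0.601 RPKM. These sums describe the RNA of the 9 genes and carry no test, and they depend on the length taken for each gene.

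The share of single genes in the sums was also described. ADORA1 made up 81.7 ± 8.75% of the antilipolytic sum in backfat, and ADRB1 made up 57.2 ± 10.7% of the lipolytic sum, with 46.5% and 46.7% in boars 71 and 72. In liver ADRA1A alone was 78.5 ± 7.75% of the summed level of all 9 receptors, whereas it was 1.34 ± 0.112% in backfat (SD, n = 5 each).

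The ratio of the antilipolytic to the lipolytic sum in backfat was 1.41, 1.44, 2.35, 2.75 and 2.39 in boars 65, 67, 69, 71 and 72. Boars 65 and 67, with the highest ADRB1, were the low ones. With the longest RefSeq transcript as the length, an alternative chosen after the data were seen, the ratio was 0.903, 1.08, 1.39, 1.87 and 1.67, so that the lipolytic sum was the larger in boar 65. Among the catecholamine receptors of the set, ADRB1 was at 7.04 to 30.0 times the level of ADRA2A per kilobase in backfat. In liver ADRB1 was at 0.160 to 1.14 times that of ADRA2A and was the lower in 3 of 5 boars. ADRA2C, an alpha-2 adrenoceptor outside the set, was at 5.87 ± 2.21 RPKM in backfat and 0.203 ± 0.159 RPKM in liver. ADRA2B, likewise outside it, was at 0.429 ± 0.177 and 1.59 ± 0.301 RPKM (SD, n = 5 each). ADRA1A was at 0.375 to 0.669 times the level of ADRA1B in backfat and at 9.76 to 44.7 times in liver. These ratios take the exon lengths of the count table, and with the longest RefSeq transcript the backfat mean of ADRA1A was 0.253 in place of 0.664 RPKM.

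**Figure D4:**
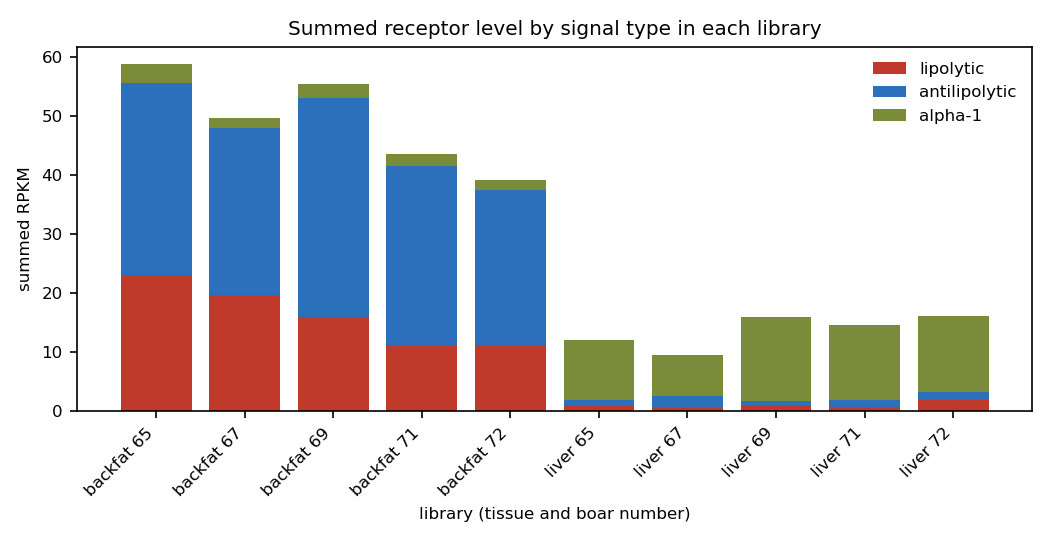
Summed RPKM of the lipolytic, antilipolytic and alpha-1 receptors in each of the 10 libraries, on an axis from 0. With the exon lengths plotted, the antilipolytic sum was the largest in all 5 backfat libraries and the alpha-1 sum in all 5 liver libraries, while with the longest RefSeq transcript the lipolytic sum was the largest in backfat of boar 65.

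Closest relatives of the 9 receptors formed a further list of 14 genes, of which 13 were matched and 12 tested. Of these, 5 were called, each of them higher in backfat, with a median log2 fold change of 0.91. The counts of this list and of those below are to be read beside the 11.1% of all tested genes called higher in backfat and the 11.2% called higher in liver. ADRA2C, another alpha-2 adrenoceptor, was at 8.12 ± 3.06 CPM in backfat and 0.280 ± 0.220 CPM in liver (SD, n = 5 each, log2 fold change 4.84, SE 0.50, edgeR adjusted p = 4.95e-06). ADRA2B, the remaining alpha-2 gene, was at 2.54 ± 1.04 CPM in backfat and 9.42 ± 1.78 CPM in liver, a log2 fold change of -1.89 under the fold threshold.

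The other called relatives were VIPR2, ADRA1D, PTGER4 and LHCGR. VIPR2, a receptor shared by VIP and PACAP, differed most, with 14.2 ± 1.93 CPM in backfat and 0.186 ± 0.149 CPM in liver (SD, n = 5 each, log2 fold change 6.28, SE 0.42, edgeR adjusted p = 1.14e-07). ADRA1D, the third alpha-1 adrenoceptor, had a log2 fold change of 3.14, PTGER4, a stimulatory prostaglandin E2 receptor, one of 2.37, and LHCGR, the glycoprotein hormone receptor related to TSHR, one of 3.78. VIPR1, also a receptor of VIP and PACAP (-1.74), and the adenosine A3 receptor ADORA3 (-1.53) passed the test with less than the fold threshold.

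Receptors of other lipolytic hormones went both ways, with 3 of 7 tested genes called higher in backfat and 2 called higher in liver. GCGR, the glucagon receptor, was at 1537 ± 441.5 CPM in liver and 0.537 ± 0.323 CPM in backfat (SD, n = 5 each, log2 fold change -11.48, SE 0.56, edgeR adjusted p = 1.26e-08). SCTR, the secretin receptor, had no read in backfat and was at least 309-fold higher in liver. MC5R, a melanocortin receptor, had the largest fitted difference toward backfat, at 0.814 ± 0.484 CPM against 3 reads in all liver libraries. NPR1 and GIPR, also called higher in backfat, had higher levels there. NPR1 was at 300.2 ± 52.1 CPM in backfat and 14.9 ± 6.02 CPM in liver (log2 fold change 4.33). GIPR was at 9.25 ± 2.83 and 0.894 ± 0.726 CPM (3.37). Other antilipolytic receptors were split, with CNR1, the cannabinoid receptor, called higher in backfat (3.35) and SUCNR1, the succinate receptor, called higher in liver (-3.12) among 5 tested.

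Downstream of the receptors, 11 G protein alpha subunits were listed, and 9 were matched and tested. GNAS, the stimulatory subunit, and GNAO1 were not matched, so nothing is said of their levels. Of the 9 tested, 1 was called, toward backfat, which is no more than the share of all tested genes called in that direction (11.1%). GNAI1, an inhibitory subunit, was at 79.1 ± 41.4 CPM in backfat and 6.68 ± 1.4 CPM in liver (SD, n = 5 each, log2 fold change 3.57, SE 0.32, edgeR adjusted p = 1.22e-06). Of 21 genes of the cyclic AMP and lipase steps, 7 were called higher in backfat and 1 higher in liver. PLIN1, the perilipin that coats the fat droplet and also 1 of the adipocyte markers, was at 1222 ± 260.7 CPM in backfat and 3.20 ± 1.36 CPM in liver (log2 fold change 8.58, SE 0.47, edgeR adjusted p = 2.95e-08). ADCY8, an adenylyl cyclase, was the gene called higher in liver, at a log2 fold change of -2.19. It was low in both tissues, at 0.431 ± 0.167 CPM in backfat and 1.99 ± 1.62 CPM in liver (SD, n = 5 each), and the libraries of the tissues overlapped.

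PLCB4 was called among the 4 phospholipase C beta genes through which alpha-1 receptors act, and its log2 fold change of 4.85 was toward backfat. RGS5, a regulator of G protein signalling and a known pericyte gene, was the only call among 11 genes of receptor desensitization (3.23). The mural cell markers summed to 521.5 to 654.8 CPM in backfat and 121.5 to 253.3 CPM in liver, all 5 markers being detected in both. The part of these cells in the level of RGS5 was not tested.

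Genes that supply or remove the ligands were called in both directions. For catecholamines, 4 genes were tested, of which 1 was called higher in backfat and 2 higher in liver. The largest changes were those of the transporter SLC22A3 toward backfat (4.01) and of the degrading enzyme MAOB toward liver (-9.47). HPGD, which inactivates prostaglandin E2, was the only call among 6 genes of that ligand, at -2.29, and was not called by glmTreat or with library size alone. For adenosine, ENTPD2, an ectonucleotidase, was called higher in backfat (2.49) and ADK, the kinase that removes adenosine, higher in liver (-2.23) among 6 tested, and neither was called by glmTreat.

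Of the peptide ligands only ADCYAP1, the gene of PACAP itself, passed the filter on low counts. It had 1 read in all backfat libraries, and in liver it was at 1.87, 5.43, 1.80, 24.2 and 12.1 CPM in boars 65, 67, 69, 71 and 72. The transcript of the ligand was thus read in the tissue where ADCYAP1R1 was at most 0.190 CPM, with a wide spread between boars. Of the other PACAP receptors, VIPR1 was at 20.4 ± 2.69 CPM in liver and VIPR2 at 0.186 ± 0.149 CPM (SD, n = 5 each).

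**Figure D5:**
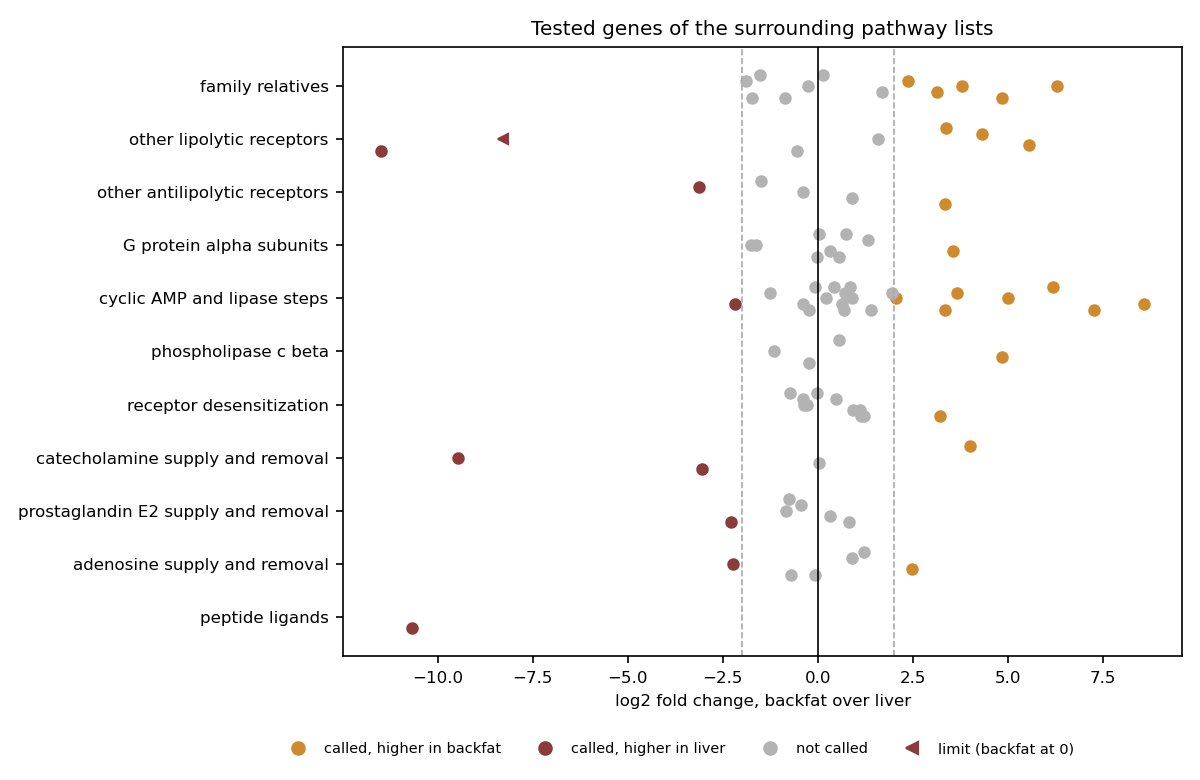
Log2 fold change, backfat over liver, of every tested gene in the lists around the receptors, with 1 point per gene and dashed lines at the fold threshold of 2. Called genes are coloured by direction, SCTR is drawn as a limit because backfat had no read, and the fitted value of ADCYAP1 rests on 1 backfat read.

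The genes most like each receptor were taken by the smallest root mean square difference between gene-centred log2(CPM + 1) profiles over the 10 libraries. The 1 CPM added to each level dampens differences among low levels, so genes listed as alike can differ in fold change. ADORA1 was closest to LGALS12 (0.211), LEP (0.223) and PRRX1 (0.250), of which LEP encodes the fat hormone leptin. ADCYAP1R1 was closest to MME (0.189), ADIG (0.200) and CDH13 (0.304), and ADIG is known from adipocytes. For TSHR the nearest were MEDAG (0.197), PRTFDC1 (0.240) and GK5 (0.248). PRTFDC1 and GK5 were at 2.92 ± 0.476 and 2.79 ± 0.529 CPM in liver (SD), where TSHR had no read. ADRB1 lay near ENPEP (0.306), BMP5 (0.336) and SRPX (0.338).

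PTGER3 was closest to a gene without a symbol (0.270), and FOLH1B (0.360) was also among its 3 nearest genes. ADRA1A was closest to C1orf116 (0.192), TJP3 (0.216) and a gene without a symbol (0.222). Their log2 fold changes were -9.42, -6.65 and -10.17, beside -4.02 for ADRA1A. For ADRA1B the nearest were LGI1 (0.202), ZNF577 (0.214) and TENM3 (0.220). ADRB3 and ADRA2A were nearest to TNFRSF17 (0.123) and BRI3 (0.143) among genes with a symbol. MCM8 (0.164) was the next such gene for ADRA2A.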

How the data were processed

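RNA-seq of backfat and liver from 5 boars (10 libraries) was analysed. The authors prepared poly(A) libraries, used Trimmomatic for trimming and HISAT2 for alignment to Sscrofa11.1. Read pairs were counted over the exons of each gene with featureCounts 2.0.1 and the Ensembl annotation, without strand and with reads on more than 1 gene left out, and the deposited values are raw counts. The length column of the deposited table, used for RPKM, is the exon length of each gene, a value in bases of a unit called other here. The counting command is in the file header, and trimming parameters are not given in the sources used here. The 10 WGBS libraries of the series were not used, since their calls carry no genomic position.

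Columns were assigned to a tissue by name. Boar numbers come from the column names and could not be matched to the replicate numbers of the labels. Counts were filtered by filterByExpr, scaled by TMM and tested with edgeR 4.0.16 (glmQLFit and glmQLFTest, tissue as the only term, R 4.3.3), with Benjamini-Hochberg adjustment over 16275 genes. DESeq2 1.42.0, limma 3.58.1 (voom), glmTreat, other scalings and filters, the boar as a block and leaving out libraries were the alternatives. Same-boar deviations from the tissue means correlated at 0.220, 0.0918, 0.0270, 0.171 and 0.126 for boars 65, 67, 69, 71 and 72, and the pairing itself comes from the animal. Backfat of boars 65, 71 and 72 correlated best with the liver of the same boar. Backfat of boar 67 correlated best with liver of boar 65, and that of boar 69 with liver of boar 72. Folds against a tissue without reads take 3 reads over its 5 libraries as the limit.

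The 9 receptors are all named. A list gene is given values where its change is the largest in its list among called genes or where it is a close relative, and up to 3 like genes are given per receptor. Some genes that this rule names are left out of the text, and NPR1 and GIPR are given beyond it. Members and lists were chosen with earlier results of these data known. Of 163 list symbols, 147 were matched. Positions and sequences are from RefSeq for Sscrofa11.1. Tests were checked on simulated counts.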

Additional observations from a re-analysis of the deposited data

Results flagged for a closer look

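A library was singled out where its gap to the next library exceeded Dixon's critical value of 0.71 for 5 libraries, in 3 of 25 groups of values checked, where chance gives about 1 in 20. The PTGER3 level in backfat of boar 67 was 62.1 CPM, far above the 19.6 to 31.4 CPM of the other boars. The ADORA1 level in liver of boar 67 was 0.351 CPM against 0.0212 to 0.0997 CPM in the other livers. In that liver library the ratio of ADORA1 to ADRB1 per kilobase was 0.451 against 0.0102 to 0.0537 in the others, and it rests on the same ADORA1 reads.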

How the results depend on the processing

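Of 175 fold changes of single receptors under other settings, 173 kept their direction and their call. ADRB3 turned to 0.046 with library size alone, a scaling that moved the median of all genes by 0.71 and called 2874 genes higher in backfat and 1340 higher in liver, against 1814 and 1819. ADRA1B was called there, at 2.12. Requiring at least 10 counts in every library left 4 of the 9 receptors to test, of which 2 were called, and 1852 of all genes in place of 3633. By glmTreat 2413 genes were called, and in the prostaglandin E2 and adenosine lists 0 of them in place of 1 and 2. With the longest RefSeq transcript as length, 5 of 9 receptors kept their place in backfat, and the mean ratio of the antilipolytic to the lipolytic sum there was 1.38 in place of 2.07. Leaving out single libraries gave 6 called receptors each time and 3716 to 3964 called genes. With the boar as a replicate block, 5 receptors were called higher in backfat and 1 in liver, and the pairing changed no call of a receptor. Depth limits ADRB3, and TSHR, ADCYAP1R1 and ADORA1 in liver, where at most 21 reads per gene were counted over the tissue.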
